A study of Mus musculus with 6 samples.

Results

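The genes described here are the core circadian clock genes Arntl, Clock, Npas2, Per1, Per2, Per3, Cry1, Cry2 and Nr1d1, together with Dbp, an output gene of the clock. They were taken from the deposited expression table by gene symbol, and all 10 were found among its 19087 genes. Messenger RNA of whole kidney tissue was sequenced from mice labelled WT (wild type), in 3 control samples and 3 samples from mice given cisplatin, a platinum drug that damages the kidney tubule, by injection into the abdominal cavity to cause acute kidney injury. The stated aim of the series was to find molecules behind the greater sensitivity of mice on a high-fat diet to kidney injury. Strain, sex, age, diet, drug dose, days after injection and the hour at which the kidneys were collected are not stated in the labels. Clock transcripts rise and fall over the day in the kidney, so the hour of collection bears on every value below, and its part was not tested. Nothing in the labels ties each sample to a separate animal, and p-values therefore measure only the spread between samples, which may be technical.

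The mammalian clock is a feedback loop of transcription. ARNTL (BMAL1) pairs with CLOCK or with its relative NPAS2, and the pair activates genes that carry the E-box sequence, among them the Per and Cry genes, Nr1d1 and Dbp. PER and CRY proteins then shut off the pair, while NR1D1 (REV-ERB alpha) represses Arntl and Npas2 through a site known as the RRE. DBP activates further genes through the D-box and is a common readout of clock output. In the kidney, the clock sets daily rhythms of sodium, water and solute handling.

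The clock genes changed in different directions after cisplatin. Of the 10 members, 5 were higher in cisplatin (Arntl, Clock, Npas2, Per1 and Cry1), 2 were lower (Per3 and Dbp) and 3 did not pass the test (Per2, Cry2 and Nr1d1), where a call means that edgeR's quasi-likelihood test gave an adjusted p below 0.05 over all genes. All 10 passed the filter on low counts. Over all 14392 genes tested, 45.4% were called, 23.1% higher and 22.2% lower, so a call by itself was common in this comparison. The median absolute log2 fold change was 1.10 over the members and 0.32 over all genes tested, and the signed medians were 0.30 and 0.01. The 2 groups did not overlap in 7 of the 10 members, 5 higher and 2 lower, against 57.6% of all genes, 29.2% higher and 28.4% lower. Scaling to library totals alone shifted the median log2 fold change of all genes by 0.14 and made 67.0% of all calls higher, against 51.0% here, and left the 5 higher and 2 lower calls among the members.

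**Figure D1:**
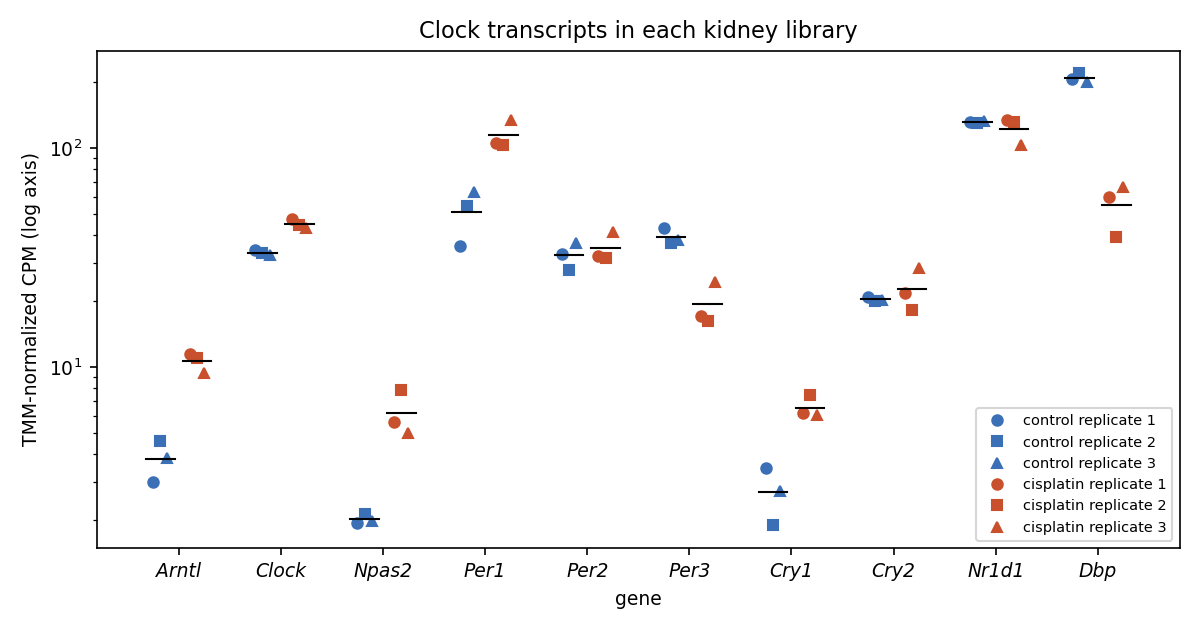
TMM-normalized CPM (log axis) of the 10 clock genes, with 1 point per library and a black bar at each group's mean. Cisplatin libraries lie above every control for Arntl, Clock, Npas2, Per1 and Cry1, and below every control for Per3 and Dbp, while for Per2, Cry2 and Nr1d1 the cisplatin libraries do not all lie on 1 side of the controls.

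Before the members, the libraries were checked. Estimated counts summed to between 16725665 and 18523666 per library. The injury marker gene Havcr1 lay at 2.14 to 3.23 CPM (reads of the gene per 1000000 reads of its library, after scaling with TMM factors, which correct for differences in composition) in the controls and at 1060, 1450 and 420 CPM in cisplatin replicates 1, 2 and 3. Along the leading principal component (80.5% of the variance) control libraries lay between -53.0 and -48.6 and cisplatin replicates 1 to 3 at 52.9, 60.9 and 38.4. Cisplatin replicate 3 thus stood nearest the controls in both measures, and its values are given apart where they matter. Markers of the proximal tubule, the main cell type of the kidney cortex, were present at a sum of 12810 to 13360 CPM in control libraries and 2885 to 6004 CPM in cisplatin libraries, with 6 of 7 called lower and none higher. Markers of the thick ascending limb summed to 5263 to 6603 and 1434 to 3054 CPM (3 of 4 lower), those of the distal convoluted tubule to 838.9 to 959.9 and 192 to 299.9 CPM (3 of 3 lower), those of the collecting duct to 520.3 to 547 and 329 to 404 CPM (4 of 5 lower) and those of the endothelium to 323 to 333 and 188 to 225 CPM (4 of 4 lower). Podocyte markers summed to 235 to 269.5 and 300.1 to 366 CPM (3 of 4 higher), fibroblast and pericyte markers to 268 to 324 and 321 to 501 CPM (2 of 4 higher) and macrophage markers to 123 to 139 and 165 to 190.8 CPM (2 of 4 higher, 1 lower). Neutrophil markers reached at most 3.67 CPM in any library, T lymphocyte markers 5.03, adipocyte markers 6.65 and adrenal cortex markers 5.39 CPM, with Cyp11b1 at 0 in every library. Red blood cell genes summed to 55.5 to 709.9 CPM in control libraries and 0.303 to 0.508 CPM in cisplatin libraries, where Hba-a2 and Hbb-bt were at 0. The part of this shift in cell type markers in the clock results was not tested, and in bulk tissue fewer cells of a type and less RNA per cell cannot be told apart.

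Promoter sequences show which of the clock's own DNA motifs lie next to the start sites of these genes. RefSeq promoters of build GRCm38.p6, each running from 250 bases before to 50 bases after an annotated start, were matched for 9 of the 10 members, all but Per2, giving 13 promoters. Each was searched on both strands for the E-box (CACGTG), the core of the RRE (TAGGTCA or TGGGTCA), the D-box (TTATGTAA or TTACGTAA) and the cAMP response element (TGACGTCA). None of these motifs overlaps another in the promoters printed. The promoters of Clock, Npas2 and Dbp, which were called, and of Cry2 and Nr1d1, which were not, held no match. Matches were found in 4 promoters, and these are printed 5′ to 3′ on the gene's own strand with the matched letters in capitals.
Per3, chr4:151044616-151044915, minus strand: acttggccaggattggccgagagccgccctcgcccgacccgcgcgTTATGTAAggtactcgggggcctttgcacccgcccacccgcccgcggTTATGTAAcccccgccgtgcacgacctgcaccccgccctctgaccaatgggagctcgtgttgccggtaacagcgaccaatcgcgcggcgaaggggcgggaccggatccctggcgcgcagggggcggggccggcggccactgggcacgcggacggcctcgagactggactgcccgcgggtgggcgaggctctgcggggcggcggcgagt
Cry1, chr10:85185005-85185304, minus strand: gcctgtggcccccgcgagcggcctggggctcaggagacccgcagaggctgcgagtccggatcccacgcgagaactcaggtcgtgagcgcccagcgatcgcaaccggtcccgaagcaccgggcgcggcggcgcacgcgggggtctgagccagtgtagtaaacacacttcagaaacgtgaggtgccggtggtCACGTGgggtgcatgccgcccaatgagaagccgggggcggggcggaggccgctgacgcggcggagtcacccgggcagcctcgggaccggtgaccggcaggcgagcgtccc
Per1, chr11:69098699-69098998, plus strand: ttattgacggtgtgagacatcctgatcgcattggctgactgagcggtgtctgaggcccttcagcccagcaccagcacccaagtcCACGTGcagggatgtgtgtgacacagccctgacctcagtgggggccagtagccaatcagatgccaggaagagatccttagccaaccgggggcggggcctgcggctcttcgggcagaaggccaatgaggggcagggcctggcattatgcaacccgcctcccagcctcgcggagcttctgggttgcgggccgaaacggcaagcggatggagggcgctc
Arntl, chr7:113207261-113207560, plus strand: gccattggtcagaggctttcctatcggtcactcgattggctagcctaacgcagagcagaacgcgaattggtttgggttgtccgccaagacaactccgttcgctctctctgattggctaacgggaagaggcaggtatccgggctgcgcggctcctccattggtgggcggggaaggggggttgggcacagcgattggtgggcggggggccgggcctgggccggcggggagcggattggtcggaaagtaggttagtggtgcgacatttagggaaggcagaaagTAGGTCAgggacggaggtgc
The Per3 promoter held 2 copies of the D-box letters TTATGTAA, beginning at positions -205 and -158 from the start site. The Cry1 promoter held an E-box at position -60, and the more upstream of the 2 annotated Per1 promoters held an E-box at -166. The more downstream of the 2 annotated Arntl promoters held the RRE letters TAGGTCA at position 31, just inside the transcript, and the other held no match. Among all 32851 promoters of this length, 1.06% held the D-box letters, 7.15% an E-box, 6.45% the RRE letters and 1.79% the cAMP response element, which no member's promoter held. Among the 14622 promoters of genes tested here, the shares were 0.745% for the D-box, 9.36% for the E-box, 5.42% for the RRE and 2.76% for the cAMP response element. A match describes letters in a window and is not a measured binding site. Likewise, a promoter without a match may have sites outside this window or with other letters, which were not searched.

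The activating arm of the clock was higher in cisplatin in every member. Arntl (Entrez 11865, chromosome 7, 113178471 to 113314126, plus strand) encodes the obligate partner of the activating pair. It lay at 2.99, 4.59 and 3.85 CPM in control replicates 1 to 3 and at 11.5, 11.0 and 9.42 CPM in cisplatin replicates 1 to 3. Each cisplatin library had more than 2 times the CPM of each control library. That is a 2.79-fold rise, or 1.48 on the log2 scale (SE 0.18), with an edgeR adjusted p of 0.000383. Its 3 control libraries rested on 49, 75 and 62 estimated counts, so the control level is the less precise side of this comparison.

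Npas2 (Entrez 18143, chromosome 1, 39193702 to 39363240, plus strand), which can take the place of Clock, was 3.04-fold higher in cisplatin. It was read at 1.95, 2.14 and 1.99 CPM in control kidneys and 5.60, 7.90 and 5.02 CPM after cisplatin. The controls were tightly grouped and the cisplatin libraries spread more widely, with replicate 2 the highest. Its rise was 1.61 on the log2 scale (SE 0.22), with an edgeR adjusted p of 0.000725, from 32 to 35 estimated counts per control library.

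Clock (Entrez 12753, chromosome 5, 76209868 to 76305603, minus strand), whose product is a DNA-binding partner of ARNTL with acetyltransferase activity, showed the smallest of the called changes. Its values were 34.3, 33.4 and 32.4 CPM in control kidneys and 47.4, 44.8 and 43.1 CPM after cisplatin. The gap between groups was wider than the spread within either, with a log2 fold change of 0.435 and SE of 0.07 (edgeR adjusted p = 0.00168). Within each library the FPKM of Npas2 (fragments per kilobase of transcript at equal library size, as deposited) was 0.141, 0.158 and 0.150 of that of Clock in the controls. In cisplatin it was 0.292, 0.432 and 0.285 of that of Clock, 2.21-fold higher on average and without overlap between the groups.

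The Period genes, which encode the PER repressors, split 3 ways. Per1 (Entrez 18626, chromosome 11, 69095108 to 69109965, plus strand), a Per gene that also responds acutely to hormones and cAMP, was at 35.7, 54.4 and 63.2 CPM in control kidneys and at 106, 103 and 135 CPM after cisplatin. Control replicate 1 was low among the controls and cisplatin replicate 3 was the highest of all. Per1 was thus 2.24-fold higher (log2 fold change 1.17, SE 0.21), with an edgeR adjusted p of 0.00429. The upstream Per1 promoter printed above is the one with the E-box.

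Per2 (Entrez 18627, chromosome 1, 91415977 to 91459351, minus strand), a limiting component of the repressor complex, was at 32.9, 27.9 and 36.8 CPM in control kidneys and 32.3, 31.5 and 41.5 CPM after cisplatin. The groups overlapped, and only cisplatin replicate 3 lay above all controls. The log2 fold change was 0.11, with a 95% interval from -0.21 to 0.42 and an edgeR adjusted p of 0.549, and it was -0.04 without cisplatin replicate 3.

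Per3 (Entrez 18628, chromosome 4, 150997018 to 151044707, minus strand), a PER gene that is less needed for the rhythm itself, fell. It was at 43.3, 37.0 and 38.2 CPM in control kidneys and at 17.2, 16.3 and 24.6 CPM after cisplatin. Every cisplatin library lay below every control, with replicate 3 the nearest to them. Per3 was 2.04-fold lower in cisplatin, a log2 fold change of -1.03 (SE 0.16), with an edgeR adjusted p of 0.00144. The ratio of Per1 to Per3 FPKM moved from 1.05, 1.85 and 2.10 in the controls to 7.71, 7.79 and 6.93 in cisplatin, a 4.68-fold higher ratio. The ratio of Per2 to Per3 moved from 0.799, 0.773 and 1.01 to 1.95, 1.95 and 1.79. Neither ratio overlapped between the groups, and in both the 3 cisplatin libraries were close together although their injury markers differed.

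The Cryptochrome genes, whose CRY proteins bind the ARNTL pair directly, also parted. Cry1 (Entrez 12952, chromosome 10, 85131700 to 85185054, minus strand), the stronger repressor, was at 3.48, 1.90 and 2.73 CPM in control kidneys and 6.16, 7.45 and 6.03 CPM after cisplatin. The groups were apart, although the controls varied nearly 2-fold among themselves on 57, 31 and 44 estimated counts. On average Cry1 was 2.42-fold higher, a log2 fold change of 1.27 (SE 0.23), with an edgeR adjusted p of 0.00245.

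Cry2 (Entrez 12953, chromosome 2, 92403646 to 92434085, minus strand) was at 20.9, 20.0 and 20.3 CPM in control kidneys and 21.8, 18.3 and 28.5 CPM after cisplatin. The controls were almost level, and the cisplatin libraries lay on either side of them. The log2 fold change was 0.16 (95% interval -0.18 to 0.51; edgeR adjusted p = 0.407) and was -0.03 without cisplatin replicate 3. The FPKM ratio of Cry1 to Cry2 was 0.219, 0.121 and 0.176 in the controls and 0.372, 0.505 and 0.276 in cisplatin, without overlap and 2.23-fold higher on average.

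Nr1d1 (Entrez 217166, chromosome 11, 98767932 to 98775377, minus strand) encodes the heme-binding nuclear receptor that represses Arntl. It was at 132, 130 and 133 CPM in control kidneys and 134, 131 and 104 CPM after cisplatin. Cisplatin replicates 1 and 2 were level with the controls and replicate 3 lay below them. The log2 fold change was -0.09 (95% interval -0.33 to 0.14; edgeR adjusted p = 0.477), and 0.01 without cisplatin replicate 3. With scaling to library totals its sign turned, at 0.05. Of the exon bases of Nr1d1 8.55% are shared with Thra on the opposite strand, and Thra was lower in cisplatin (log2 fold change -0.53; edgeR adjusted p = 0.00238). Without knowledge of strand in the counting, reads of this stretch cannot be assigned to either gene.

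Dbp (Entrez 13170, chromosome 7, 45705100 to 45710203, plus strand), the D-box activator, showed the largest change of the members. It was at 208, 220 and 201 CPM in control kidneys and at 59.6, 39.5 and 66.7 CPM after cisplatin. The lowest control had 3 times the CPM of the highest cisplatin library, and replicate 2 was the lowest of the cisplatin libraries. Its mean was 3.79-fold lower, a log2 fold change of -1.92 (SE 0.18), with an edgeR adjusted p of 0.000174. Dbp shares 18% of its exon bases with Sphk2 on the opposite strand, and Sphk2 had a log2 fold change of -0.21 that did not pass the test (edgeR adjusted p = 0.0838).

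**Figure D2:**
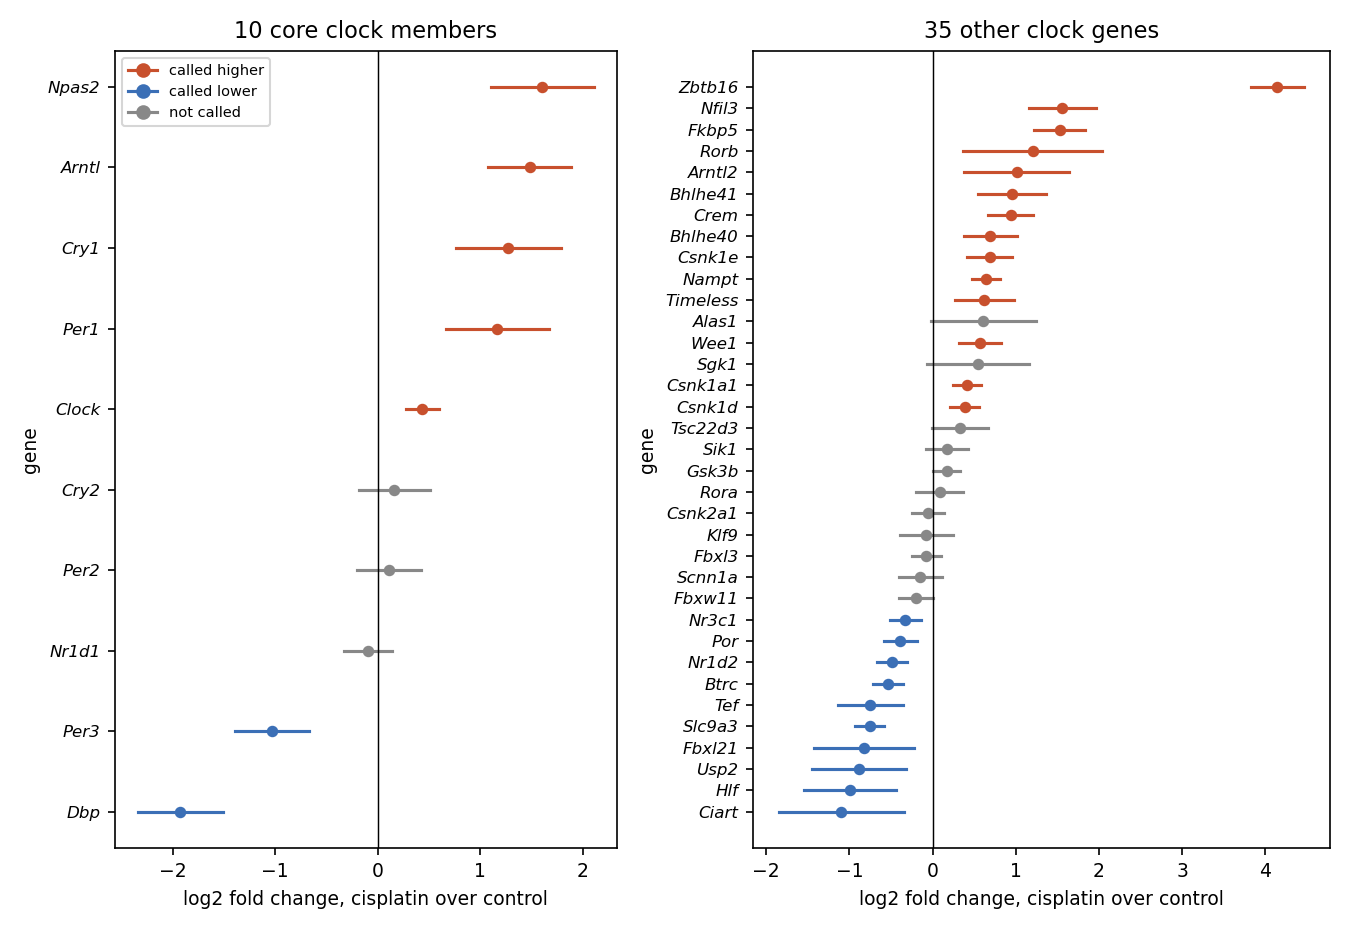
Log2 fold changes of cisplatin over control (points) with 95% intervals (lines) for the 10 members on the left and 35 other genes on the right, coloured by the call in edgeR's test. The right panel, titled other clock genes, also holds genes of hormone and cAMP inputs, such as Zbtb16. Members run from -1.92 for Dbp to 1.61 for Npas2, and the intervals of Per2, Cry2 and Nr1d1 hold 0.

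Compared within a library, which removes any scaling between libraries, Arntl moved apart from Dbp, Per3 and Nr1d1. Per1 and Cry1, also targets of the activating pair, rose as Arntl did (log2 fold changes of 1.17 and 1.27, against 1.48). Their ratios to Arntl were not computed. The FPKM ratio of Arntl to Dbp was 0.00963, 0.0130 and 0.0114 in control replicates 1 to 3 and 0.120, 0.175 and 0.0875 in cisplatin replicates 1 to 3. This ratio was 10.9-fold higher in cisplatin on average. The ratio of Arntl to Per3 went from 0.168, 0.274 and 0.216 to 1.48, 1.47 and 0.852. Against Nr1d1, its repressor, Arntl stood at 0.0251, 0.0365 and 0.0287 in the controls and at 0.0887, 0.0872 and 0.0932 in cisplatin, 3.01-fold higher. Nr1d1 and Dbp, both E-box targets, also separated, with a ratio of Nr1d1 to Dbp of 0.383, 0.356 and 0.397 in the controls and 1.36, 2.0 and 0.939 in cisplatin. The pairs were chosen after the values of the single genes were known. All 9 ratios computed were without overlap between the groups, and with 3 against 3 libraries the smallest p that a two-sided exact permutation test allows is 0.1.

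**Figure D3:**
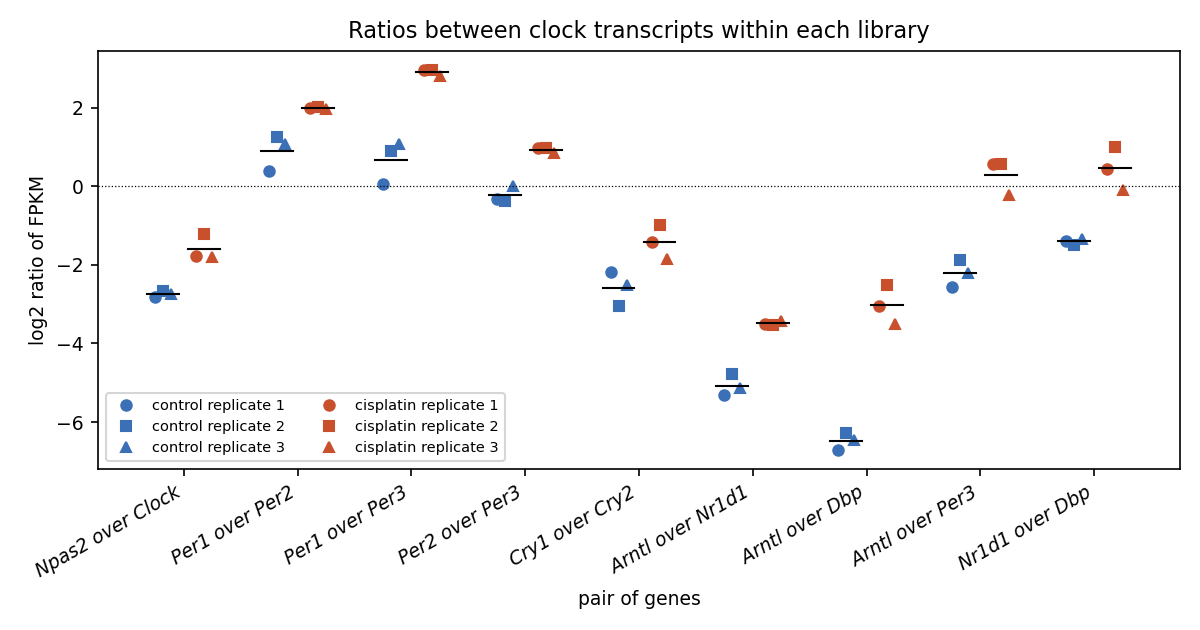
Log2 ratios of FPKM for 9 pairs of clock genes within each library, with 1 point per library and a black bar at each group's mean. All 9 pairs are higher in every cisplatin library than in any control, with the widest gap for Arntl over Dbp, whose mean log2 ratio is -6.47 in the controls and -3.03 in cisplatin.

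Set in order of FPKM, which allows levels of different genes to be compared, control kidneys ran from Dbp (118 to 127 FPKM over the 3 libraries) through Nr1d1 (45.0 to 47.0), Per1 (7.30 to 13.1), Per3 (5.98 to 6.98), Per2 (4.62 to 6.29), Cry2 (4.95 to 5.12), Clock (3.20 to 3.34), Arntl (1.17 to 1.64) and Cry1 (0.60 to 1.12) to Npas2 (0.47 to 0.51). Only Per3 with Per2 and Per2 with Cry2 were neighbours whose ranges overlapped. In cisplatin kidneys Nr1d1 was first (38.2 to 52.8 FPKM) and Dbp next (25.9 to 40.7), with overlapping ranges, and the range of Dbp also reached that of Per1 (24.0 to 29.0). Arntl stood at 3.56 to 4.68 FPKM, overlapping Clock at 4.42 to 5.18 and Per3 at 3.08 to 4.18. Cry1 (2.03 to 2.70) and Npas2 (1.26 to 2.14) remained lowest, and their ranges overlapped as well. Per2 (5.99 to 7.48) and Cry2 (5.35 to 7.36) overlapped each other in the middle of the order.

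The place of cisplatin replicate 3, the library with the weakest injury markers, was read for each member. Over all genes it also lay nearest the controls along the leading principal component (38.4, against 52.9 and 60.9 for replicates 1 and 2). The share of all called genes in which it was nearest was not computed, so the counts here have no background beside them. Among the 7 called members it was the cisplatin library nearest the control mean for 6, namely Arntl, Clock, Npas2, Per3, Cry1 and Dbp, and the farthest for 1, Per1. For the 3 members that were not called it was the farthest from the controls, above them for Per2 and Cry2 and below them for Nr1d1. The largest gaps to the mean of the other 2 cisplatin libraries were 0.55 on the log2 scale for Per3 and 0.51 for Cry2, both upward. Leaving this library out left the same counts of 5 higher and 2 lower members.

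**Figure D4:**
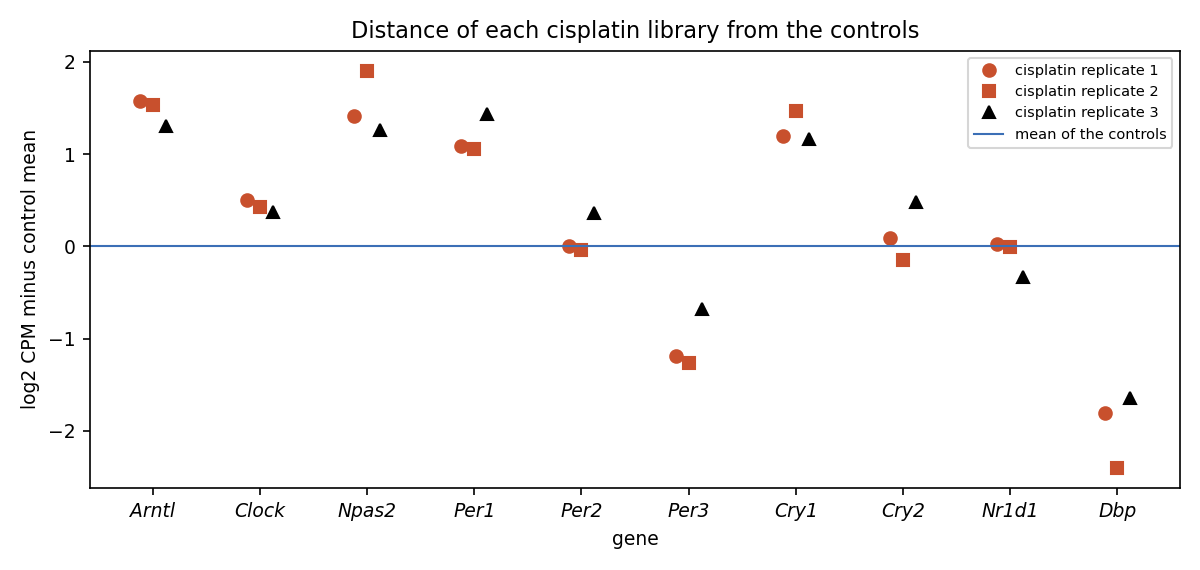
Log2 CPM of each cisplatin library minus the mean of the controls for the 10 clock genes, with cisplatin replicate 3 as a black triangle and the control mean as a line at 0. The triangle is nearest the line for 6 of the 7 called genes and farthest from it for Per1, Per2, Cry2 and Nr1d1.

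A wider list of 36 genes outside the members was read from the same test, to place the members within their pathway. It holds other clock genes and clock outputs, and also 8 genes of hormone and cAMP inputs, which are not clock genes themselves. All 36 passed the count filter, 14 were higher, 11 lower and 11 not called, or 69.4% called against 45.4% of all genes, with a median log2 fold change of 0.17. The list was chosen with earlier results of these data known. The shares called in it and in its parts below are therefore descriptions and not tests of enrichment. Without control replicate 3 or without cisplatin replicate 1 the number of lower genes was 7.

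The relatives of Dbp fell with it while their antagonist rose. Tef and Hlf encode the other D-box activators of the PAR bZIP family. Tef was at 337, 354 and 353 CPM in control kidneys and 189, 164 and 269 CPM after cisplatin (log2 fold change -0.75; edgeR adjusted p = 0.00895), and Hlf at 127, 107 and 125 CPM against 59.9, 39.9 and 80.0 CPM (-0.999; adjusted p = 0.0125). In both genes all cisplatin libraries lay below all controls, and replicate 3 was the highest of them, as for Dbp. Nfil3, which encodes the repressor that competes for the D-box, rose from 4.52, 4.96 and 3.23 CPM to 13.8, 12.7 and 11.0 CPM (log2 fold change 1.56; edgeR adjusted p = 0.000302).

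Among the nuclear receptors of the second loop, Nr1d2, the close relative of Nr1d1, fell from 91.4, 92.9 and 89.3 CPM to 64.0, 59.7 and 70.7 CPM (log2 fold change -0.49; edgeR adjusted p = 0.00158). Whether Nr1d1 and Nr1d2 differed in response was not tested. Rorb, which encodes an activating receptor that binds the same sites, was called higher (log2 fold change 1.20; adjusted p = 0.0265), and its relative Rora was at 39.4 ± 4.3 CPM in control kidneys and 41.8 ± 6.4 CPM after cisplatin (mean ± SD, n = 3 each). The Rorb call, on a control mean of 0.573 CPM, was lost without control replicate 2 or 3 (edgeR adjusted p = 0.0899 and 0.0855) or cisplatin replicate 2 or 3 (0.0754 and 0.0553; 0.0166 to 0.114 over all alternatives), and with the replicate number as a block (0.0682).

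Of the other E-box factors, Arntl2, a relative of Arntl, rose from 1.29 ± 0.27 to 2.60 ± 0.61 CPM (log2 fold change 1.01; edgeR adjusted p = 0.0173; mean ± SD, n = 3). The repressor gene Bhlhe41 (DEC2) rose from 4.14 ± 0.66 to 8.01 ± 1.25 CPM (0.95; adjusted p = 0.00331). Ciart, which encodes the repressor CHRONO, fell from 16.4, 11.6 and 14.2 CPM to 5.15, 4.36 and 10.3 CPM (-1.10; edgeR adjusted p = 0.0267). All cisplatin libraries were below all controls for Ciart, with replicate 3 close to them. The Arntl2 call was lost without control replicate 2 (edgeR adjusted p = 0.0596) or cisplatin replicate 1 or 2 (0.0549 and 0.0548; 0.00665 to 0.0596 over all alternatives). The Ciart call was lost without control replicate 1 or 3 (0.0819 and 0.0708) or cisplatin replicate 1 or 2 (0.0882 and 0.0612; 0.000114 to 0.0882 over all alternatives).

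Genes for kinases, ubiquitin ligases and partners that act on PER and CRY proteins had log2 fold changes between -0.83 and 0.68, with 4 of 10 called higher, 2 lower and 4 not called. That is 60% called, against 45.4% of all genes. Csnk1e, which encodes a casein kinase 1 that phosphorylates PER, rose by 0.68 on the log2 scale, from 19.1 ± 2.3 to 30.7 ± 3.5 CPM (edgeR adjusted p = 0.00219; n = 3). Timeless, a replication fork factor that also binds clock proteins, rose by 0.62 (adjusted p = 0.0120). Btrc, a ligase subunit gene for PER breakdown, fell from 36.5 ± 2.5 to 25.1 ± 0.4 CPM (-0.54; adjusted p = 0.000926). Fbxl21, a CRY ligase subunit gene, was called lower at -0.83 (adjusted p = 0.0311). That Fbxl21 call was lost without control replicate 2 or 3 (edgeR adjusted p = 0.112 and 0.0828) or cisplatin replicate 1, 2 or 3 (0.0563, 0.0562 and 0.0600; 0.0151 to 0.112 over all alternatives), with the replicate number as a block (0.0650) and with library totals (0.0639).

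Among 7 known clock-controlled output genes 2 were higher and 3 lower, or 71.4% called against 45.4% of all genes. Usp2, which encodes a deubiquitinase with a strong daily rhythm, fell from 171, 181 and 206 CPM to 87.6, 72.9 and 142 CPM (log2 fold change -0.88; edgeR adjusted p = 0.0219). Slc9a3, which encodes the sodium-hydrogen exchanger NHE3 of the proximal tubule, fell from 142 ± 3 to 83.7 ± 6.3 CPM (-0.76; adjusted p = 0.000190; n = 3). It was at 84.6, 89.6 and 77.0 CPM in cisplatin replicates 1 to 3. Proximal tubule markers, which also fell, summed to 4057, 2885 and 6004 CPM in the same libraries, in the opposite order. The part of the marker shift in the Slc9a3 result was not tested. Nampt, the rate-limiting enzyme gene of NAD salvage, rose from 136 ± 6 to 213 ± 6 CPM (0.64; adjusted p = 0.000330), and Wee1, a kinase gene that delays mitosis, rose by 0.57 (adjusted p = 0.00347). The Usp2 call was lost without control replicate 3 (edgeR adjusted p = 0.0666) or cisplatin replicate 1 (0.0736; 3.63e-05 to 0.0736 over all alternatives).

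Per1 is also a direct target of glucocorticoid and cAMP signals, and 8 genes of those inputs were read beside it. Of these, 3 were higher, 1 lower and 4 not called, or 50% called, near the 45.4% of all genes. Zbtb16, a transcription factor gene that glucocorticoids induce, rose from 1.95, 2.20 and 3.04 CPM to 40.8, 43.1 and 43.4 CPM (17.6-fold, 4.14 on the log2 scale; edgeR adjusted p = 7.2e-07). Fkbp5, which encodes a co-chaperone of the glucocorticoid receptor, rose from 57.3, 57.9 and 55.3 CPM to 156, 136 and 200 CPM (1.53; adjusted p = 9.78e-05). Crem, which encodes cAMP-responsive factors, rose from 10.1 ± 1.5 to 19.3 ± 0.5 CPM (adjusted p = 0.000521). In Fkbp5, as in Per1, cisplatin replicate 3 was the highest library, while in Crem and Sik1 it was the lowest of the cisplatin libraries. For Zbtb16 the cisplatin libraries were nearly level and their order depended on the scaling. In FPKM, replicates 1 to 3 stood at 5.76, 6.12 and 5.71, with replicate 3 the lowest. Nr3c1, the gene of the receptor itself, was lower by a small amount (-0.33; edgeR adjusted p = 0.0116), a call lost with scaling to library totals (0.108) and on both FPKM scales (0.134 and 0.133; 0.00466 to 0.134 over all alternatives). Other glucocorticoid-responsive genes did not pass the test, with Tsc22d3 at 34.0 ± 2.6 and 42.8 ± 9.2 CPM, Sgk1 at 81.7 ± 14.1 and 120 ± 44 CPM and Klf9 at 177 ± 12 and 168 ± 33 CPM in control and cisplatin (mean ± SD, n = 3). Cisplatin replicate 3 was the highest library in Tsc22d3, Sgk1 and Klf9 too, and the lowest of the cisplatin libraries in Nr3c1. The part of hormone signals in the Per1 result was not tested.

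Genes whose profile over the 6 libraries was nearest to that of a member were found by the root mean square difference of log2 CPM centred on the control mean, among 11152 genes with a symbol and a mean of at least 5 CPM. Nearest to Dbp were St8sia1, a ganglioside sialyltransferase gene (difference 0.122), Syn3, a synapsin gene whose reads are uncertain because it spans Timp3 on the other strand (0.128), and Amacr, a racemase gene of branched fatty acid breakdown (0.128). Their log2 fold changes were -2.02, -1.79 and -2.05. Nearest to Npas2 were Tifa, an adaptor gene of NF-kappa-B signalling (0.0805), Sdc1, which encodes syndecan 1 (0.0839), and Vopp1 (0.101), with log2 fold changes of 1.64, 1.51 and 1.65. Nearest to Arntl were Siva1, a gene of apoptosis signalling (0.123), the cytochrome P450 gene Cyp4f17 (0.131) and the kinase gene Mast4 (0.140), with log2 fold changes of 1.58, 1.47 and 1.53. None of these 9 genes is in the clock lists, and the likeness is over 6 libraries of 2 groups.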

How the data were processed

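Kidney RNA of 6 mouse samples, 3 control and 3 cisplatin, was analysed. Reads were aligned with HISAT to GRCm38.p6, per the submitters' processing notes; the annotation, strandedness and counter were not given in the sources. The estimated counts per gene deposited by the authors were not normalized (66.2% to 67.7% of values per library equal a whole number exactly, zeros included, and the rest have decimals). The FPKM deposited by the authors are scaled to transcript length and library size, and the TPM deposited by the authors entered no test. Columns of controls bear the letters w and c with a number and the letter A, taken to mean wild type control since the other columns name cisplatin. The meaning of the A is not known, and the labels give no batch, so a batch difference between the groups could not be told apart from cisplatin.

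Counts were rounded, filtered with filterByExpr (minimum count 10; 14392 genes left), TMM-normalized and tested with edgeR 4.0.16 (quasi-likelihood F test, robust, two-sided, group as the only term, Benjamini-Hochberg over all genes) in R 4.3.3, after a check on simulated data. Standard errors are the log2 fold change over the square root of F. Intervals are 95%. Log2 CPM used a prior count of 2. Replicate pairs differed by 8.61 to 53.3 times the sampling variance, so no library is a copy. Library totals of 16725665 to 18523666 set the counting precision, and the biological coefficient of variation was 0.121.

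Alternatives were DESeq2 1.42.0, library totals, no filter, limma 3.58.1 on log2(FPKM + 1) and log2(FPKM + 0.1), the replicate number as a block, and leaving out each library. Members and gene lists were chosen with earlier results of these data known. Named genes are all members, and in each other clock list the 2 called genes with the largest change in each direction. Rora, Crem, Sik1, Tsc22d3, Sgk1 and Klf9 were added after their values were seen. A gene that this rule picked is not reported here, although the counts over its list include it. For Dbp, Npas2 and Arntl the 3 nearest profiles were named. Of the marker genes listed, Trac and Cyp11b2 were not analysed here.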

Additional observations from a re-analysis of the deposited data

How the results depend on the processing

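The calls of all 7 called members, and the counts of 5 higher and 2 lower, held under each of the 12 alternatives run. The signs of the 3 uncalled members did not hold. Nr1d1 was 0.046 with library totals, 0.0301 on log2(FPKM + 1), 0.0304 on log2(FPKM + 0.1) and -0.16 to 0.0059 with each library left out in turn. Over the same left-out libraries Per2 ran from -0.035 to 0.20 and Cry2 from -0.032 to 0.30, each lowest without cisplatin replicate 3. With each library left out in turn, the wider list had 12 to 16 higher and 7 to 11 lower genes, and all genes 2486 to 3614 higher and 2281 to 3591 lower. On log2(FPKM + 1) the Npas2 change was 0.81, since the pseudocount shrinks low genes. Same-numbered samples did not deviate together (correlations of 0.03, -0.14 and -0.13), so the numbers were not taken to pair the samples; with the replicate block 2822 genes were higher and 2739 lower. Depth limits Arntl, Npas2 and Cry1 most, at 31 to 75 estimated counts per control library.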
